A study of Mus musculus with 6 samples.

Results

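Complement is a protein cascade that marks cells and debris for uptake and recruits leukocytes, and 8 of its genes were followed here in CD45+ cells from B16-F10 mouse melanomas: the C1q chains C1qa, C1qb and C1qc, the central component C3, the alternative pathway genes Cfb and Cfp, and the anaphylatoxin receptors C3ar1 and C5ar1. They were matched by symbol, 8 of the 32285 genes in the matrices, and each symbol matched 1 gene. Single-cell RNA-Seq covered 2 groups of 3 samples each, called αPD-1 and αPD-1 + corin. The tumors grew in female C57BL/6 mice aged 6 to 10 weeks, all of which were given the αPD-1 antibody (150 μg, 3 times a week, starting on day 7 after the tumor cells). The αPD-1 + corin mice also received 200 μg of corin, a dual inhibitor of the CoREST complex, daily from day 6, and the others were given vehicle (200 μL of 5% DMSO in PBS). There were 10 mice per arm. No label ties a sample to particular mice, so p-values measure the spread between samples, which may be technical in part.

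C1q is the recognition unit of the classical pathway and is assembled from its 3 chains, mostly by macrophages. All pathways meet at C3, whose activated form binds factor B, the product of Cfb, to make the convertase of the alternative pathway, and properdin, the product of Cfp, stabilizes that convertase. Fragments released from C3 and C5 signal through the receptors encoded by C3ar1 and C5ar1 on myeloid cells.

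The members lie on the reverse strand of GRCm39, and the 3 C1q genes are neighbors on chromosome 4 (C1qb at chr4:136606009-136613511, C1qc at chr4:136616466-136620376, C1qa at chr4:136623223-136626161). C3 (chr17:57510964-57535155) and Cfb (chr17:35074852-35081559) share chromosome 17, and C3ar1 is at chr6:122823393-122833122, C5ar1 at chr7:15980668-15993465 and Cfp at chrX:20791688-20797794. All are annotated as protein-coding genes. The RefSeq promoter table, built on GRCm38.p6, held 6 of the 8 members, each found once in GRCm39, and did not hold C1qa or Cfb. Promoters of 250 bases before to 50 after the annotated start are shown for C3, which had the largest fold change of the tested members in fibroblasts, for a receptor (C3ar1) and for the neighboring C1q genes, on the strand of the gene. Capitals mark matches, on either strand, to the letters searched: NF-kB (GGGA and CC with any 4 bases between), C/EBP TTGCNNAA, AP-1 TGANTCA, PU.1 GAGGAAG and TATA box TATAAA.
C3 (chr17:57535087-57535386): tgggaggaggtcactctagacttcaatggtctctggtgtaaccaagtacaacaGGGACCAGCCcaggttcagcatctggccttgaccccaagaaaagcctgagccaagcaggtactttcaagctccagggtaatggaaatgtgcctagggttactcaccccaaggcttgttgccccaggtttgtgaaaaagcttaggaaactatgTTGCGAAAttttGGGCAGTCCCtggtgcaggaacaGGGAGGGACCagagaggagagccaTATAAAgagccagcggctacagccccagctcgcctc
C3ar1 (chr6:122833067-122833366): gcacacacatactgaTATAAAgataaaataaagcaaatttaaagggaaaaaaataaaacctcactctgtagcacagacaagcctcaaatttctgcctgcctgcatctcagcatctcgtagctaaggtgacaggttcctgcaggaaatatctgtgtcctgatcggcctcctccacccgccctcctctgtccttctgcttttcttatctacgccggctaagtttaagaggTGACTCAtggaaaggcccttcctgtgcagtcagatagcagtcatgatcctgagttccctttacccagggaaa
C1qb (chr4:136613462-136613761): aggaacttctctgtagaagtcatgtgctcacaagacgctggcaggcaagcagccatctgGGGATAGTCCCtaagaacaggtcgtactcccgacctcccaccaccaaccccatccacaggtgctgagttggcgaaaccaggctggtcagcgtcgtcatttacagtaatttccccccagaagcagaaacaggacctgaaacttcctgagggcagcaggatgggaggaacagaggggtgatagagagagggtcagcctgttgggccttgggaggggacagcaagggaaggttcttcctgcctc
C1qc (chr4:136620176-136620475): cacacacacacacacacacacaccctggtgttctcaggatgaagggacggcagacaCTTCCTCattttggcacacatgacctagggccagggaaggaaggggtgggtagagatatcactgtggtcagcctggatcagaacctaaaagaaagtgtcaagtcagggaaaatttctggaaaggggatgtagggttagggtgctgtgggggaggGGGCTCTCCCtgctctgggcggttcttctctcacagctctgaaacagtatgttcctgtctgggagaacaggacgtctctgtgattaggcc

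The C3 window held 3 matches to the NF-kB letters, 1 to C/EBP and 1 to the TATA letters. The NF-kB letters also occurred in the C1qb window, as overlapping matches on both strands, and in the C1qc window, which held the PU.1 letters as well. The C3ar1 window held 1 AP-1 match and 1 TATA match. The promoters of C5ar1 and Cfp held no match to these or to the interferon-stimulated response element (GAAA and GAAA with any 2 bases between), the gamma-activated site TTCNNNGAA and the cyclic AMP response element. Of 32851 promoters in the table, 20.7% held the NF-kB letters, 10.8% C/EBP, 13.6% PU.1, 13.6% TATA, 7.81% AP-1, 3.44% the interferon-stimulated response element, 8.30% the gamma-activated site and 1.79% the cyclic AMP response element, so single matches are common. They are matches of letters, not evidence of binding.

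The libraries held between 52281422 and 84276739 unique molecular identifiers (UMIs) in 6433 to 13228 barcodes, with medians of 2400 to 3114 UMIs per barcode. Of these barcodes 3663 to 7860 per sample were kept, 28865 in all. Clusters were named from marker lists, without the markers or complement genes in the clustering, as macrophage (10168 cells), monocyte (1322), dendritic cell (1324), neutrophil (2239), fibroblast (987) and melanoma (1884), each name meaning that the cluster resembles that type. Ptprc, which encodes CD45, was at 394 to 577 CPM (the UMIs of a gene as a share of all UMIs summed over a sample and lineage, scaled as counts per 1000000) in macrophages but at 18.8 to 62.7 CPM in fibroblasts and 7.85 to 55.9 CPM in melanoma cells, so the last 2 lineages held little CD45 mRNA. Cell numbers differed between the groups, with 38 to 63 fibroblasts and 16 to 28 neutrophils in each αPD-1 sample against 79 to 612 and 105 to 1267 with corin added. Libraries shared 10 to 32 barcodes, at most 0.457% of the smaller library. One sample stood apart from its group for several members: αPD-1 + corin replicate 3 had the highest C3 of its group in macrophages, monocytes and fibroblasts and the lowest Cfp and C3ar1 in macrophages, monocytes and dendritic cells. Values without it are given beside the results it moves. The sample was singled out from the members' own values, so p-values of the members without it are a description, not a test.

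The levels of the members separated the lineages. Means and SDs here are over the 6 samples of both groups. C1qb was highest in macrophages (2857 ± 434 CPM, SD, n = 6), and no other lineage overlapped with them, monocytes being next (539.9 ± 289). C3ar1 was likewise highest in macrophages (369 ± 137 CPM) and stood apart from neutrophils (109 ± 46.7) and monocytes (105 ± 61.7), which overlapped. C5ar1 was highest in neutrophils (307 ± 62.2 CPM), which overlapped with macrophages (267 ± 63.0) but not with monocytes (128 ± 31.8). The neutrophil levels rest on 16 to 28 cells in each αPD-1 sample, and many neutrophils held 2 or more UMIs of the macrophage markers. Cfp had no single peak, since monocytes (325 ± 149 CPM), macrophages (310.5 ± 93.2) and dendritic cells (294 ± 74.2) overlapped. Cfb was highest in fibroblasts (366.5 ± 222 CPM), apart from macrophages (84.7 ± 29.7). C3 was also highest in fibroblasts (1319 ± 1320 CPM), with a spread as large as the mean, which includes the difference between the groups given below. Its lowest fibroblast sample, with αPD-1 alone, overlapped with monocytes (250.5 ± 69.3). For comparison, T or NK cells held 80.1 to 135 CPM of C1qb, 2.24 to 18.4 of C3, 2.50 to 8.32 of Cfb, 10.1 to 29.2 of Cfp, 6.08 to 27.9 of C3ar1 and 6.80 to 26.8 of C5ar1, and where these UMIs came from was not tested.

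**Figure D1:**
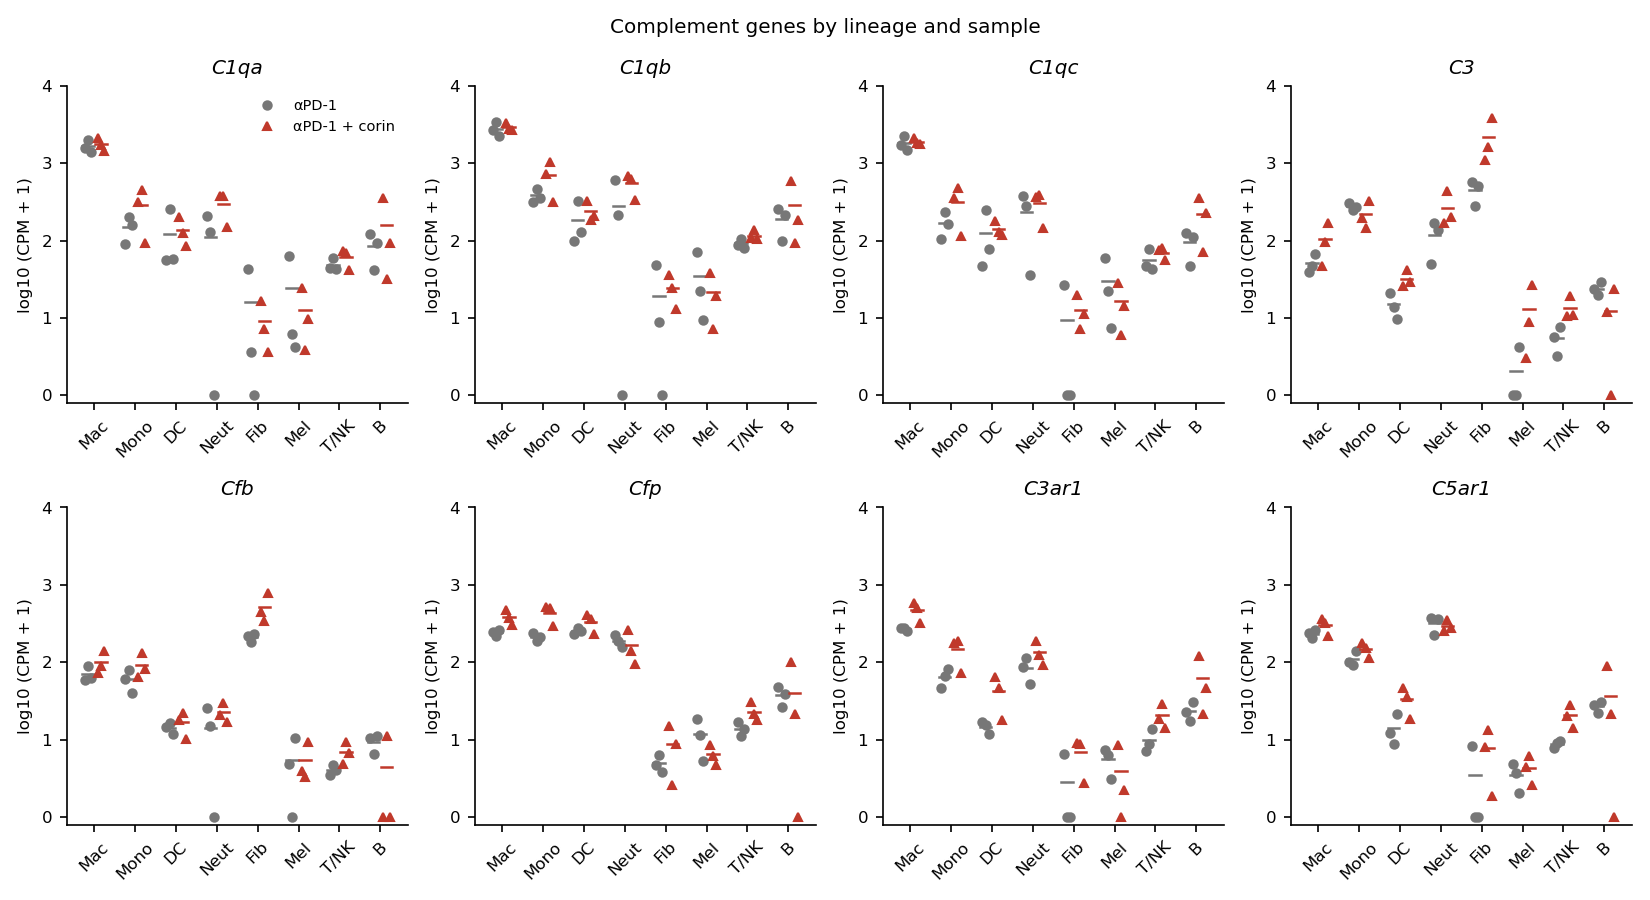
Level of each member as log10 (CPM + 1) in the sums of each sample over 8 cell classes, with αPD-1 samples as gray circles, αPD-1 + corin samples as red triangles and a line at each group's mean CPM; a point at 0 had no UMI. C1q and C3ar1 peak in macrophages, C3 and Cfb in fibroblasts, and the 3 αPD-1 + corin fibroblast sums lie above the 3 αPD-1 sums for C3 and Cfb.

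The genes whose levels followed a member most closely over 63 sums of 11 lineages were, for C1qa, C1qb (Pearson's r = 0.981), C1qc (0.978) and Ms4a7 (0.932). For C3 they were Igfbp6 (0.881), Mgst1 (0.862) and Dram1 (0.858), and for Cfb they were Lrp1 (0.893), Nfix (0.858) and Rnase4 (0.849). Cfp was closest to Cd300c2 (0.949), C3ar1 to Lgmn (0.932) and Adgre1 (0.928), and C5ar1 to Clec4d (0.952). These sums share libraries and cell types, so the values describe the pattern and carry no test.

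C3 had the largest log2 fold change of the members tested in fibroblasts, in macrophages and over all kept cells. In fibroblasts, which make connective tissue, C3 was at 581, 276 and 505 CPM with αPD-1 alone and at 1111, 1615 and 3826 CPM with corin added, from 105 to 317 and from 1033 to 5141 UMIs. Every αPD-1 + corin sample lay above every αPD-1 sample, and replicate 3 was more than any other. The log2 fold change was 2.27 (SE 0.46, adjusted p = 0.0316, edgeR quasi-likelihood test), while 1.03% of the 6894 genes tested in fibroblasts were called higher and 1.16% lower. Leaving out any 1 of the αPD-1 samples kept the difference between 2.06 and 2.55 but raised the adjusted p to between 0.0746 and 0.135, and without αPD-1 + corin replicate 3 it was 1.60 (adjusted p = 0.0173).

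Cfb, whose product pairs with activated C3, was higher in each αPD-1 + corin fibroblast sample as well. It was at 219.9, 184 and 234 CPM with αPD-1 alone and at 446, 339 and 775 CPM with corin added. These groups did not overlap, but the log2 fold change of 1.28 (SE 0.34) missed the threshold (adjusted p = 0.0622, edgeR). Without αPD-1 + corin replicate 3 it passed at 0.89 (adjusted p = 0.0402, edgeR), where 6.97% of all genes were called higher. Of the genes tested in fibroblasts, 11.5% had all αPD-1 + corin samples above all αPD-1 samples. The other members were at most 47.6 CPM in fibroblasts, where 3 UMIs correspond to 0.648 to 8.56 CPM, and of these only C1qb passed the filter on low counts and it was not called.

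A larger share of fibroblasts held a C3 UMI in each αPD-1 + corin sample. With each cell thinned to 1000 UMIs, 24.2%, 21.1% and 25.0% of fibroblasts held one with αPD-1 alone (95% Wilson intervals within 11.1 to 38.8%) and 37.7%, 43.0% and 68.0% with corin added (within 32.7 to 75.0%). The groups did not overlap, with an exact permutation p of 0.1 (two-sided, adjusted p = 0.427 over 64 comparisons), the smallest that 3 against 3 samples allow. Such shares of cells were computed for the members only, so how many other genes would separate is not known. For Cfb the shares were 16.1%, 10.5% and 16.7% (within 4.17 to 29.6%) against 26.5%, 35.4% and 42.2% (within 23.1 to 50.3%), with the same p. In T or NK cells the mean share went from 0.291% to 0.736% for C3 and from 0.224% to 0.455% for Cfb. Without thinning, the mean share with C3 was 55.1% and 72.3% in fibroblasts and 1.03% and 2.27% in T or NK cells, whose median depths were 7065 to 9266 and 1809 to 3445 UMIs per cell. These intervals cover counting error only.

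Markers of some other cells also differed between the groups in the fibroblast sums. The 10 macrophage markers summed to 149.9 to 191 CPM with αPD-1 alone and to 422 to 567 CPM with corin added. Of the 10, 8 were higher on average, 3 of them in every αPD-1 + corin sample, and none was at 0 in all samples. The 8 monocyte markers summed to 505 to 826 CPM and to 1318 to 1885 CPM, all 8 higher on average and 3 in every αPD-1 + corin sample. The 6 markers of mature dendritic cells summed to 237 to 266 and 158 to 225 CPM, with 3 of the 6 higher on average. Of 6 B cell markers 0 were higher on average, and the 7 fibroblast markers themselves summed to 34621 to 37221 and 31391 to 40873 CPM. Fibroblasts with 2 or more UMIs of the macrophage markers other than Apoe were then left out, a choice made after seeing the data, and 28 to 51 and 51 to 365 cells per sample remained. The C3 log2 fold change was then 2.30 and no longer called (adjusted p = 0.0846, edgeR). Monocyte markers were not used for this choice, and the part of these markers in the C3 difference was not tested.

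The other complement genes of a list of 35 gave the context in fibroblasts. Only 12 of the 35 passed the filter on low counts, which a gene can pass through the group where it is high. C4b, Cd55 and Clu were called, beside the 1.03% of all genes called higher, and the call of Clu carries no weight because of that filter. C4b, the component that C1 cleaves in the classical pathway, was at 163, 78.9 and 99.8 CPM with αPD-1 alone and at 359, 311 and 716 CPM with corin added (log2 fold change 1.99, SE 0.39, adjusted p = 0.0282, edgeR). Clu, which encodes clusterin, an inhibitor of the terminal complex, passed the filter through the αPD-1 + corin samples and so had to differ, and its values are a description. It had 1 UMI in all αPD-1 fibroblasts and 242 in the αPD-1 + corin fibroblasts, a ratio of 48.1 per UMI summed. These UMIs were pooled over the samples of a group, so the ratio leaves out the spread between samples. Cd55, a membrane regulator that dissociates the convertases, was at 47.6, 49.97 and 51.3 CPM and at 155, 89.1 and 121 CPM (1.28, SE 0.28, adjusted p = 0.0383, edgeR). The C1 inhibitor gene Serping1 (852 ± 189 and 1789 ± 393 CPM, SD, n = 3) did not overlap between the groups but was not called (adjusted p = 0.0861, edgeR).

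**Figure D2:**
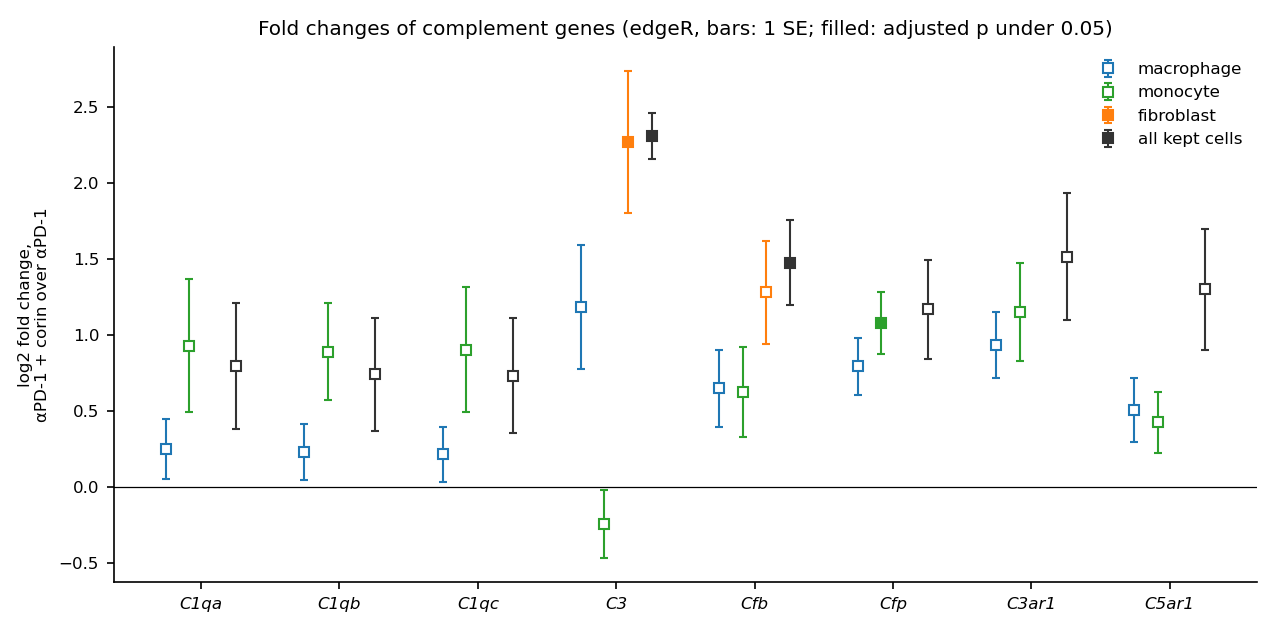
Log2 fold change of αPD-1 + corin over αPD-1 for the members in macrophages, monocytes and all kept cells, and for C3 and Cfb in fibroblasts, with bars of 1 SE; filled squares have an adjusted p under 0.05. C3 in fibroblasts (2.27) and over all kept cells (2.31), Cfb over all kept cells (1.48) and Cfp in monocytes (1.08) are filled.

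In macrophages the C1q chains did not differ beyond the spread between samples. C1qa was at 1567, 2003 and 1393 CPM with αPD-1 alone and 2145, 1721 and 1461 CPM with corin added. C1qb was at 2707, 3381 and 2237 against 3336, 2770.0 and 2711 CPM, and C1qc at 1722, 2246 and 1483 against 2144, 1807 and 1758 CPM. All 3 chains overlapped between the groups, and the low and high samples were the same for each chain among the αPD-1 samples. Their log2 fold changes were 0.25 (SE 0.20), 0.23 (SE 0.18) and 0.22 (SE 0.18), with adjusted p between 0.508 and 0.538 (edgeR). All 3 were negative in CPM averaged over macrophage states with equal weight and without scaling between samples (values with the states). The C1qa to C1qb ratio was 0.598 and 0.599 (geometric means, difference 0.0037 on the log2 scale, SE 0.08, exact permutation p = 1.0) and the C1qc to C1qb ratio 0.654 and 0.648 (-0.01, SE 0.02, exact permutation p = 0.6).

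Cfp and C3ar1 were higher in each αPD-1 + corin macrophage sample but were not called. C3ar1 was at 278, 278 and 256 CPM with αPD-1 alone and at 576, 506 and 318 CPM with corin added (log2 fold change 0.93, SE 0.22, adjusted p = 0.114, edgeR). Cfp was at 246, 219 and 261 against 468, 369.6 and 299 CPM (0.80, SE 0.19, adjusted p = 0.116, edgeR). Both groups were separate for these genes, as for 4.15% of the 11668 genes tested in macrophages in that direction, and replicate 3 was the lowest αPD-1 + corin sample for each. The other receptor gene, C5ar1, overlapped, with 238, 202 and 260.1 against 361, 323 and 215 CPM (0.51, SE 0.21, adjusted p = 0.256, edgeR). Without replicate 3 of the αPD-1 + corin group, C3ar1 (1.15, adjusted p = 0.000663), Cfp (0.95, adjusted p = 0.00308) and C5ar1 (0.71, adjusted p = 0.00934) passed the threshold (edgeR), in a fit that called 10.5% of all genes higher. The macrophage fits that left out any other single sample called no member.

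C3 and Cfb spread the other way among the αPD-1 + corin macrophages. C3 was at 38.1, 46.3 and 65.7 CPM with αPD-1 alone and at 46.4, 96.3 and 169 CPM with corin added (1.19, SE 0.41, adjusted p = 0.208, edgeR), highest in replicate 3. Cfb was at 58.3, 88.4 and 62.2 against 71.0, 88.6 and 139 CPM (0.65, SE 0.25, adjusted p = 0.236, edgeR). Both overlapped between the groups. Of the 8 members none was called in macrophages by edgeR, 5 had an unadjusted p under 0.05 (17.9% of all genes did) and DESeq2 called 3 higher, while edgeR called 0.223% of all genes tested and DESeq2 called 1.33% higher. The median log2 fold change of the members was 0.58 against 0.0043 for all genes, and without scaling between samples the median of all genes moved by -0.15.

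Mean shares of macrophages with a UMI of a member were higher with corin added. They were computed for the members only, so no share of all genes without overlap stands beside them. After thinning, the mean share with C3ar1 was 20.2% and 33.4%, without overlap, and with C1qc 47.0% and 58.2%, without overlap (exact permutation p = 0.1, adjusted p = 0.427 over 64 comparisons). The shares with C1qa (39.8% and 52.9%), C1qb (58.6% and 67.7%) and Cfp (16.98% and 25.9%) overlapped between the groups. In T or NK cells the thinned shares were 2.39% and 2.62% for C1qc and 0.484% and 0.811% for C3ar1. Without thinning the macrophage shares were 59.1% and 72.4% for C1qc and 51.7% and 68.7% for C3ar1, at median depths of 2998 to 4694 UMIs per cell, and those in T or NK cells 5.44% and 7.31% for C1qc and 2.01% and 3.97% for C3ar1. The macrophage markers themselves summed to 7128 to 7319 CPM in the αPD-1 macrophages and to 8008 to 16266 CPM in the αPD-1 + corin macrophages, all 10 higher on average, and the neutrophil markers to 81.0 to 112 and 179.6 to 706 CPM, all 8 higher on average. Their part in the differences above was not tested.

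The macrophages and monocytes were clustered again into 15 states, named by their 2 leading genes, and 12 had enough cells in every sample to be fitted. Among these was the Nkg7 Cd3d state, whose leading genes included T cell genes such as Cd3d and Cd3g. C1qb was highest in the Saa3 Lyve1 state (5486 ± 767 CPM, SD, n = 6) and the Ccl8 Cd163 state (5002 ± 454 CPM), and was at 872 ± 253 CPM in the Inhba Ndrg1 state and 646 ± 320.4 CPM in the Chil3 Hp state. C3 was highest in the Chil3 Hp state (249.7 ± 87.6 CPM), in which all 8 monocyte markers counted. Cfp was highest in the Ccl8 Cd163 state (626 ± 108 CPM). The states were filled unequally by the groups, with 18 to 26 cells of the Ccl8 Cd163 state with αPD-1 alone and 29 to 465 with corin added, and 1 to 14 against 11 to 772 for Ppbp Ccl24, which was not fitted.

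Within states, 2 of 93 tests of a member were called. C3ar1 in the Ccl8 Cd163 state was at 242, 329 and 258 CPM with αPD-1 alone and 741, 671 and 452 CPM with corin added (log2 fold change 1.28, SE 0.23, adjusted p = 0.0164, edgeR), where 1.85% of genes were called higher and 7.56% had groups apart in that direction. C3 in the Cxcl9 Fcrl5 state was at 39.3, 56.2 and 107 CPM against 112, 116 and 269.5 CPM (1.65, SE 0.36, adjusted p = 0.0433, edgeR), where 0.477% of genes were called higher and 4.91% had groups apart in that direction. Neither pair of groups overlapped, although the lowest αPD-1 + corin sample of C3 rested on 9 UMIs and lay close to the highest αPD-1 sample. Leaving out single samples gave adjusted p values of the C3ar1 difference above 0.05 in 5 of 6 cases, with the exception of αPD-1 + corin replicate 3. The C3 difference lost its call without αPD-1 replicate 1 (1.39, adjusted p = 0.258), αPD-1 replicate 2 (1.49, adjusted p = 0.387) or αPD-1 + corin replicate 3 (0.91, adjusted p = 0.405, edgeR), and DESeq2 did not call it (adjusted p = 1.00).

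C3ar1 had a positive log2 fold change in all 12 fitted states, from 0.30 to 1.41, without overlap in 6 of them, where the share of genes with groups apart in that direction was 3.17 to 8.55% per state. Cfp was positive in 11 of 12 and C3 in 8 of 9. The states come from the same 6 samples, so these counts are not independent of each other. The C1q chains were not, since C1qb was negative in 8 of 12 states, and in the Saa3 Lyve1 state its αPD-1 samples (5872, 6037 and 6422 CPM) all lay above its αPD-1 + corin samples (5022, 4330.0 and 5235 CPM). In the Cxcl9 Fcrl5 state C1qb was likewise at 4663, 5082 and 5001 against 4322, 4181 and 4196 CPM. Groups apart in that direction were found for 11.2% and 8.57% of genes in these states. With 11 macrophage states weighted equally in each sample, an alternative added after seeing the data, the differences were -0.24 (SE 0.08) for C1qa, -0.16 (SE 0.08) for C1qb and -0.17 (SE 0.07) for C1qc, with no overlap between the groups and an exact permutation p of 0.1, the smallest possible. The 11 included the Nkg7 Cd3d state, which held the lowest C1qa difference of the 12 states (-0.57), and left out Ppbp Ccl24. The average used CPM without scaling between samples. Without that scaling, the median log2 fold change of all genes in the macrophage sums moved by -0.15. This average was made for the members only, so no share of all genes stands beside it. In the macrophage sums without such weights, 23.1% of 11668 genes had groups apart downward and 4.15% upward. C3ar1 (0.54, SE 0.18) and Cfp (0.23, SE 0.08) kept their direction with no overlap and the same p, whereas C3 (0.90, SE 0.54), Cfb (0.29, SE 0.28) and C5ar1 (0.12, SE 0.15) overlapped.

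**Figure D3:**
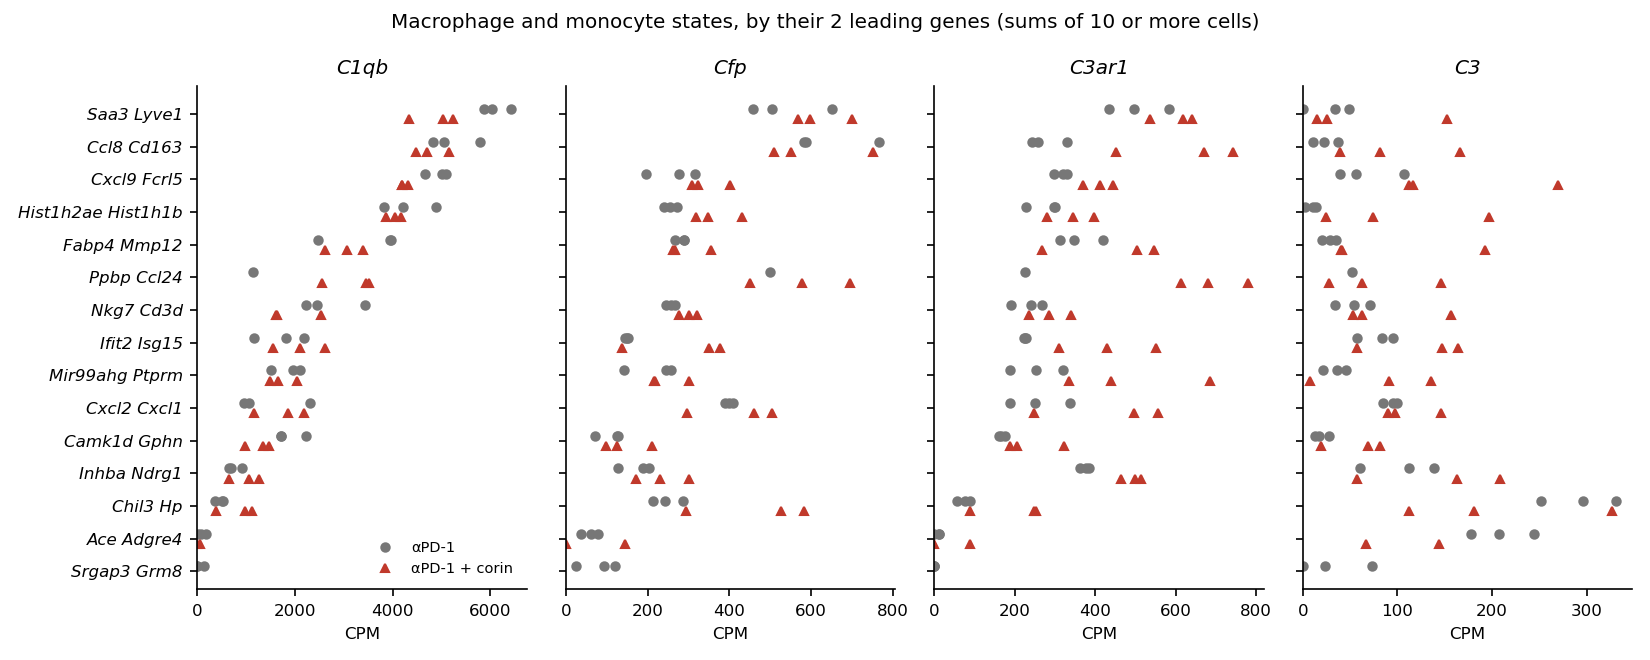
CPM of C1qb, Cfp, C3ar1 and C3 in each macrophage or monocyte state with 10 or more cells in a sample, ordered by mean C1qb, with αPD-1 samples as gray circles and αPD-1 + corin samples as red triangles. For C1qb the gray points lie to the right in Saa3 Lyve1 (5872 to 6422 against 4330.0 to 5235 CPM), whereas for C3ar1 the red points lie to the right in Ccl8 Cd163 (452 to 741 against 242 to 329 CPM).

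In monocytes, blood-derived cells that enter tumors, Cfp was called. It was at 239, 188 and 209 CPM with αPD-1 alone and 524, 499 and 289 CPM with corin added, without overlap and with replicate 3 lowest of its group (log2 fold change 1.08, SE 0.20, adjusted p = 0.0345, edgeR). Among 7542 genes tested, 0.331% were called higher in monocytes and 8.98% had groups apart in that direction. Leaving out any sample other than αPD-1 + corin replicate 3 ended this call, with adjusted p up to 0.197 and differences of 0.94 to 1.32 over these fits. After thinning, 17.5%, 13.1% and 15.7% of αPD-1 monocytes held a Cfp UMI (95% Wilson intervals within 9.25 to 22.9%) and 39.9%, 38.6% and 20.5% of αPD-1 + corin monocytes (within 16.0 to 48.4%), with an exact permutation p of 0.1. In T or NK cells the mean share was 0.640% and 1.80%. Without thinning the mean shares were 44.0% and 66.2% in monocytes and 3.08% and 4.88% in T or NK cells.

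The other members were not called in monocytes. C3ar1 was at 45.4, 66.0 and 81.6 CPM against 177, 189 and 71.7 CPM (1.15, SE 0.32, adjusted p = 0.109, edgeR), overlapping only through replicate 3 of the αPD-1 + corin group. C1qb was at 320.1, 471 and 359 against 734, 1035 and 319 CPM (0.89, SE 0.32, adjusted p = 0.188, edgeR). C3 was at 308, 249 and 275 against 197, 145 and 329 CPM, the only member with a negative value (-0.24, SE 0.22, adjusted p = 0.648, edgeR). Without replicate 3 of the αPD-1 + corin group, 5 members were called higher (C1qa, C1qb, C1qc, Cfp and C3ar1) and C3 was called lower (-0.64, adjusted p = 0.0385, edgeR), in a fit that called 2.87% of all genes higher and 2.70% lower. Leaving out any other single sample gave no called member in monocytes. The neutrophil markers summed to 183 to 217 CPM in the αPD-1 monocytes and 391 to 2426 CPM in the αPD-1 + corin monocytes, 5 of 8 higher on average, and their part was not tested.

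In dendritic cells, C3ar1 was at 15.7, 14.3 and 10.8 CPM with αPD-1 alone and 63.9, 45.2 and 16.7 CPM with corin added (1.72, SE 0.48, adjusted p = 0.193, edgeR). C3 was at 20.2, 13.02 and 8.83 against 24.6, 40.9 and 28.5 CPM (1.21, SE 0.33, adjusted p = 0.189, edgeR). Neither overlapped, as for 5.56% of the genes tested there, but none of the 8 members was called by edgeR, against 0.764% of all genes, with 4 at an unadjusted p under 0.05 (12.1% of all genes) and 1 called higher by DESeq2, which called 0.341% of all genes higher. The αPD-1 levels of C3ar1 lay within the range in T or NK cells (6.08 to 27.9 CPM), and the macrophage markers in the dendritic cell sums went from 651 to 1030 CPM to 719.7 to 2045 CPM, with 10 of 10 higher on average. Cfp, the member with a high level in these cells, was at 232, 276 and 254 against 405, 366 and 229 CPM and overlapped (0.46, SE 0.20, adjusted p = 0.399, edgeR). Without αPD-1 + corin replicate 3, C3ar1 (2.12, adjusted p = 0.00109), C5ar1 (1.67, adjusted p = 0.00978) and Cfp (0.69, adjusted p = 0.00749) were called higher with edgeR, as were 3.55% of all genes. No member was called when any other single sample was left out.

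Neutrophils could be compared only weakly, since the αPD-1 sums held as few as 57821 UMIs, of which 3 make up to 51.9 CPM. C5ar1, which drives neutrophil chemotaxis, was at 369.9, 227 and 363 CPM against 256, 352 and 273 CPM (0.0047, SE 0.29, adjusted p = 1.0, edgeR). C3 was at 49.3, 170.3 and 138 CPM, from 4, 12 and 8 UMIs, against 166, 432 and 203 CPM (1.36, SE 0.53, adjusted p = 0.416, edgeR). Both overlapped, and of 7 members tested none was called by edgeR or DESeq2, with 2 at an unadjusted p under 0.05 (9.80% of all genes) and 0.0570% of all genes called. Macrophage markers in these sums went from 1320 to 1665 CPM to 2146 to 4581 CPM, 9 of 10 higher on average. In melanoma cells all members were at or below 70.8 CPM, C3 had 0, 0 and 3 UMIs with αPD-1 alone and 8, 14 and 83 with corin added, and 4 of the 8 members could be tested. None of the 4 was called by edgeR or had an unadjusted p under 0.05, and DESeq2 called none, as edgeR called 0 of 9466 genes there, 676 of them (7.14%) with an unadjusted p under 0.05.

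Over all kept cells of a sample, C3 and Cfb were called higher. C3 was at 50.04, 44.4 and 56.4 CPM with αPD-1 alone and 201, 221 and 283 CPM with corin added (2.31, SE 0.15, adjusted p = 0.0045, edgeR). Cfb was at 27.6, 43.4 and 26.5 against 105, 57.2 and 93.2 CPM (1.48, SE 0.28, adjusted p = 0.0265, edgeR). Cfp, C3ar1 and C5ar1 were also above every αPD-1 sample in each αPD-1 + corin sample (1.17, 1.52 and 1.30) with adjusted p of 0.0547, 0.0542 and 0.0689 (edgeR), as were 16.2% of all genes, and 6.84% of genes were called higher. Without αPD-1 + corin replicate 3, Cfp (1.46, adjusted p = 0.00941), C3ar1 (1.87, adjusted p = 0.0100) and C5ar1 (1.66, adjusted p = 0.00347) were called as well (edgeR), in a fit that called 15.9% of all genes higher. The call of Cfb was lost in 5 of 17 alternatives, among them the fits without αPD-1 replicate 1 (1.37, adjusted p = 0.112) or αPD-1 replicate 3 (1.34, adjusted p = 0.0980, edgeR). Without cells that held UMIs of another lineage neither C3 (1.74, adjusted p = 0.0645) nor Cfb (1.18, adjusted p = 0.187) was called (edgeR). These sums mix the number of cells of a lineage with the RNA per cell, which cannot be told apart in them.

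The UMIs of C3 came from different lineages in each sample. Fibroblasts held 34.5%, 14.2% and 18.8% of C3 UMIs with αPD-1 alone (95% Wilson intervals within 11.9 to 37.6%) and 76.7%, 23.3% and 70.0% with corin added (within 22.1 to 77.7%). In αPD-1 + corin replicate 2 neutrophils held 56.1% (54.6 to 57.5%) of them, against 7.42% and 1.21% in replicates 1 and 3. Many of these neutrophils held 2 or more UMIs of the macrophage markers. Without such cells 507 of 1267 were left in replicate 2 and 169 of 806 in replicate 1. Their part in the C3 UMIs was not tested. Monocytes held a mean of 32.4% with αPD-1 alone and 2.95% with corin added. The fibroblast share of kept cells was 1.04 to 1.44% and 2.00 to 7.79%, and the neutrophil share 0.394 to 0.642% and 2.22 to 32.1%. For Cfb, fibroblasts held a mean of 17.3% and 40.4% and macrophages 54.0% and 43.6%. Macrophages held most UMIs of the C1q chains in every sample (77.8 to 93.3% for C1qb) and of C3ar1 (72.1 to 90.8%). For C5ar1 the macrophage share was 67.4 to 80.4% with αPD-1 alone and 84.8%, 49.8% and 72.2% with corin added, and neutrophils held 44.5% in αPD-1 + corin replicate 2.

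**Figure D4:**
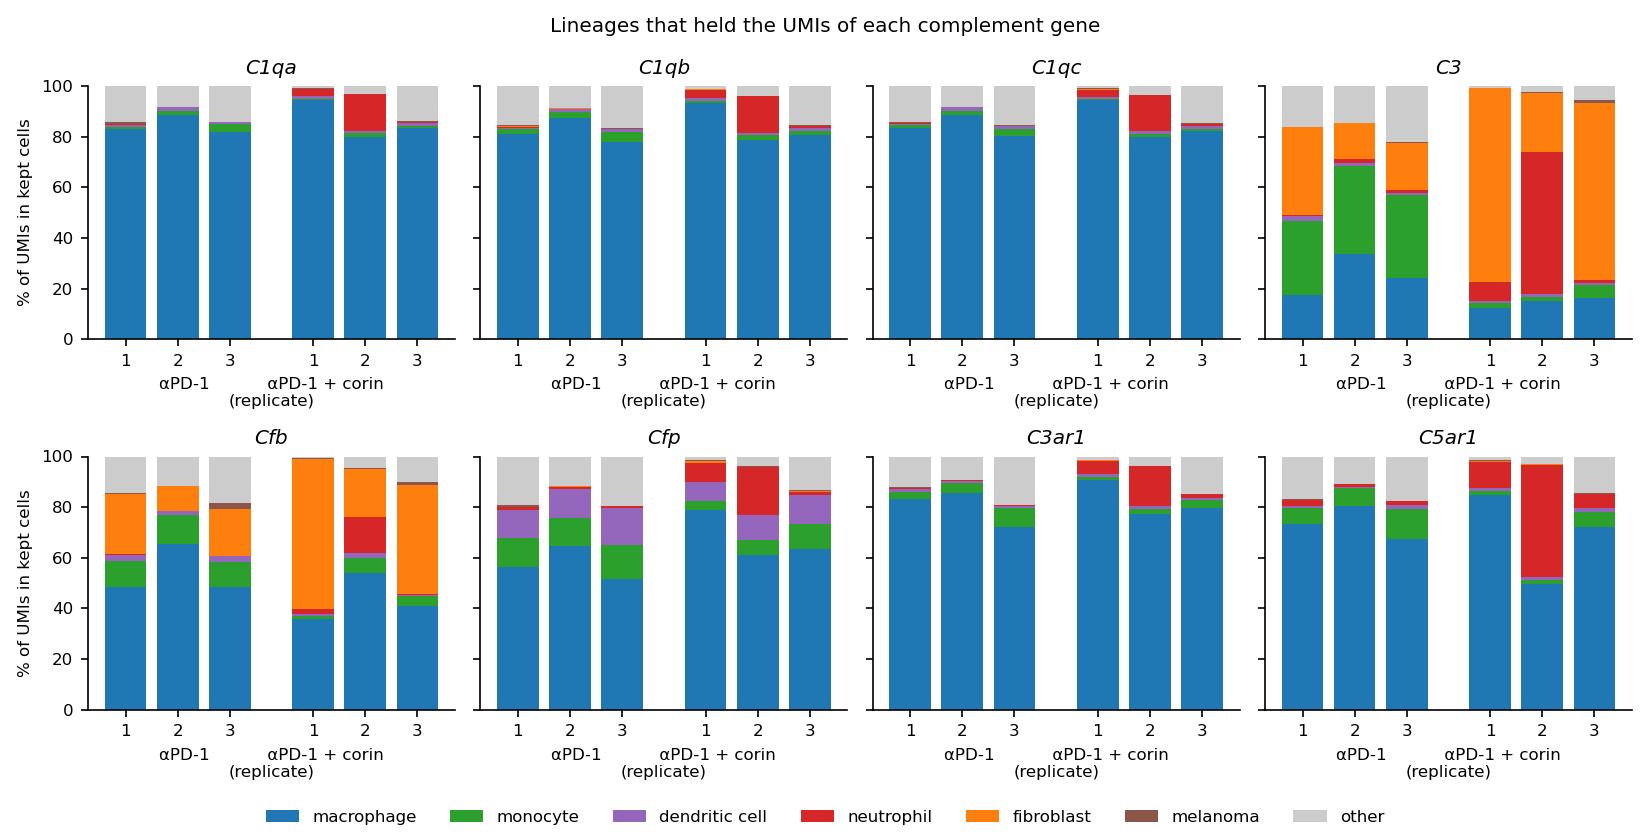
Percent of each member's UMIs in kept cells that lay in each lineage, 1 bar per sample (replicates 1 to 3 of αPD-1, then of αPD-1 + corin); other holds the remaining classes. Macrophages fill most of each bar for C1q and C3ar1, whereas for C3 fibroblasts fill 76.7% and 70.0% of αPD-1 + corin replicates 1 and 3 and neutrophils 56.1% of replicate 2.

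Whether the treatment difference itself differed between lineages was tested with an interaction term against macrophages. Of 40 such tests of a member, 0 passed the threshold with edgeR, and the term was not fitted with DESeq2. An unadjusted p under 0.05 was found in 4 of the 40, a count for which the share of all genes was not computed. Of all 11820 genes, 0.00846% were called in monocytes and in neutrophils, 0.0169% in dendritic cells and in melanoma cells, and 0.0931% in fibroblasts. The C3 difference was 1.16 larger in fibroblasts than in macrophages (SE 0.50, unadjusted p = 0.0263 and adjusted p = 0.350 from edgeR) and 1.31 smaller in monocytes (-1.31, SE 0.51, unadjusted p = 0.0143 and adjusted p = 0.793 from edgeR). The rest of the 4 were Cfp in melanoma cells (-1.62, SE 0.47, unadjusted p = 0.00139 and adjusted p = 0.503 from edgeR) and C5ar1 in dendritic cells (0.90, SE 0.40, unadjusted p = 0.0303 and adjusted p = 0.764 from edgeR). The Cfp difference in monocytes was 0.27 above that in macrophages (SE 0.27, adjusted p = 1.0, edgeR). The calls of C3 in fibroblasts and of Cfp in monocytes are therefore not shown to be particular to those lineages.

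Among the other complement genes, Itgb2, which encodes the shared chain of the complement receptors 3 and 4, was called higher in monocytes (234 ± 19.2 and 419.8 ± 28.7 CPM, SD, n = 3, log2 fold change 0.88, SE 0.13, adjusted p = 0.0140, edgeR), 1 of 9 tested there. Of all genes tested in monocytes, 0.331% were called higher. In macrophages 19 were tested and 8 had an unadjusted p under 0.05, as did 17.9% of all genes tested there. The lowest adjusted p in macrophages was also that of Itgb2 (196 ± 12.8 and 307 ± 29.3 CPM, 0.79, SE 0.14, adjusted p = 0.0589, edgeR). In dendritic cells Cd55 (-2.71, SE 0.40, adjusted p = 0.0194, edgeR) and Cr2 (-4.80, SE 0.60, adjusted p = 0.00777, edgeR) were called lower, 2 of 11 tested, as were 0.588% of all genes. Cr2 encodes a receptor of B cells, and the 6 B cell markers in the dendritic cell sums went from 394 to 515 CPM to 20.9 to 69.7 CPM, lower in every αPD-1 + corin sample for all 6, and their part was not tested.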

How the data were processed

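Single-cell RNA-Seq of CD45-selected tumor cells was measured in 3 αPD-1 and 3 αPD-1 + corin samples, grouped by their labels. The authors deposited UMI counts per gene and barcode, made with Cell Ranger on GRCm39 from a 10x Genomics 5′ assay and not normalized. Kept barcodes had between 600 and 4000 genes detected and no more than 10% of UMIs from mitochondrial genes. Of all barcodes, the 2002 with the highest Scrublet scores in their samples were marked as doublets, at a preset 0.4% per 1000 barcodes. Leaving these out reduced the 30067 barcodes within the limits to 28865. Cells were clustered with Seurat 5.3.0 and sctransform 0.4.2 (20 components, resolution 0.8), with marker and complement genes left out. Clusters were named by at least 3 markers, under a rule set after the data were seen. UMIs were summed per sample and lineage with 10 or more cells and tested with edgeR 4.0.16 (quasi-likelihood, TMM scaling, filterByExpr, Benjamini-Hochberg over all genes tested, threshold 0.05). DESeq2 1.42.0 was an alternative. Shares were compared by exact permutation tests over samples, two-sided, also after thinning to 1000 UMIs. The members and lists were chosen with earlier results of these data known. Named genes were the 8 members, the called genes of the other complement list and the 3 genes closest to each member, and other genes singled out were chosen after their values were seen. On simulated data for fibroblasts, 154 of 200 genes with a simulated 4-fold change passed the filter, and 147 of these were found with 10 false calls among 6810 genes. The simulation gave every gene the same relative spread and held no outlying sample, so it does not show how smaller changes would be found. Alternatives covered scaling, filters, doublets, clustering settings, replicate pairing and left-out samples. Same-numbered samples did not deviate together (correlations of -0.169 to 0.0653), so no pairing was used. UMIs outside kept cells were not used.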

Additional observations from a re-analysis of the deposited data

How the results depend on the processing

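Over 32 member values and 642 alternatives, most kept their direction and side of the threshold. The number of members called higher depended on the setting, and so did the percent of all genes called higher, given in parentheses. With DESeq2 it was 3 in macrophages (1.33%), 2 in monocytes (1.64%), 1 in dendritic cells (0.341%), 2 in fibroblasts (3.94%) and 5 over all kept cells (14%). With no filter on low counts it was 4 in macrophages (2.18%), 5 in monocytes (1.36%), 5 in dendritic cells (1.92%), 3 in neutrophils (0.626%), 2 in fibroblasts (1.85%), 1 in melanoma cells (0.223%) and 4 over all kept cells (3.78%), and 13 summed over the states (0.227 to 1.86%) with 1 lower (0.101 to 1.46%). With markers kept in the clustering it was 2 in monocytes (0.786%) and 1 in neutrophils (0.327%), and with LogNormalize 4 (0.868%) and 1 (0.597%). Without the upper limit on detected genes it was 7 in monocytes (8.53%), 1 in neutrophils (0.146%), 0 in fibroblasts (0.130%) and 1 over all kept cells (0.481%). With cells thinned it was 2 in fibroblasts (0.978%) and 6 over all kept cells (12.2%). Leaving out cells with UMIs of another lineage gave 0 in fibroblasts (0.207%) and 0 over all kept cells (0.00788%), and leaving out fibroblasts with macrophage marker UMIs, added after seeing the data, gave 0 (0.0374%). Leaving out 1 sample gave 0 to 3 in macrophages (0 to 10.5%), 0 to 5 in monocytes (0.0130 to 2.87%) with 0 to 1 lower (0.0126 to 2.70%), 0 to 3 in dendritic cells (0 to 3.55%), 0 to 2 in fibroblasts (0.104 to 6.97%), 1 to 5 over all kept cells (0.0124 to 15.9%), and 0 to 14 higher (0 to 6.29%) and 0 to 4 lower (0 to 6.14%) in the states. The highest counts and shares of all genes came without αPD-1 + corin replicate 3 in each of these lineages. The causes were not tested.

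With a replicate block, 0 members were called in monocytes (0.0796% of genes higher, Cfp 1.04, adjusted p = 0.0682, edgeR) and 1 over all kept cells (1.03%, Cfb 1.48, adjusted p = 0.0690, edgeR), while C3 in fibroblasts stayed called (2.12, adjusted p = 0.0258, edgeR). The samples share only a number.

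C3 in monocytes turned to 0.24 with no upper limit on genes. C5ar1 in neutrophils, near 0 throughout, was -0.000133 with RLE size factors, -0.0135 with the replicate block, -0.12 by library size only, -0.15 without αPD-1 replicate 2, -0.23 without αPD-1 + corin replicate 2, -0.0075 thinned, -0.11 with markers kept, -0.000927 at resolution 1.2, -0.0698 with LogNormalize, -0.0568 without doublet removal and -0.0745 at 5% mitochondrial UMIs, and between -0.231 and 0.217 over the fits that left out 1 sample. With states weighted equally and CPM not scaled between samples, the C1q chains in macrophages were at -0.24, -0.16 and -0.17. The C1qa to C1qb ratio ranged from -0.0471 to 0.0802 on the log2 scale when 1 sample was left out. In neutrophils 3 UMIs made up to 51.9 CPM, which limits what could be resolved there. At resolution 0.4 dendritic cells could not be fitted.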
